A study of Mus musculus with 8 samples.

Results

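The replication-dependent and variant histone genes were followed in long-term haematopoietic stem cells (LT-HSC) of the mouse, the rare bone marrow cells that maintain blood formation over a lifetime. Members were the genes whose symbol, current or as in the array annotation, is that of an H1, H2A (macroH2A included), H2B, H3 or H4 histone, read from probe sets annotated to a single gene symbol. This gave 55 genes out of 29911 genes with such a probe set. They comprised 25 replication-dependent genes (4 of H1, 9 of H2A, 7 of H2B, 3 of H3 and 2 of H4), 7 somatic variants, 16 germ-line variants, 6 pseudogenes and H3f3c. A further 46 probe sets were annotated to more than 1 histone gene and to no other gene, and are described beside the members as shared probe sets.

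Gene expression was measured on 8 Affymetrix arrays, 2 for each of 4 groups, which came from distinct experiments per the submitters. All mice, of both genotypes, received diphtheria toxin, and irradiation of the whole body or a sham procedure followed 72 h later. Cells with the surface phenotype Lin- cKit+ Sca+ Flk2- CD48- CD150+ were then sorted from bone marrow at day 5. The groups were CD169DTR/+ mice given 2 Gy (CD169-DTR 2 Gy), CD169DTR/+ mice given sham irradiation (CD169-DTR non-irradiated), wild-type mice given 2 Gy (WT 2 Gy) and wild-type mice given sham irradiation (WT non-irradiated). The CD169DTR/+ mice carry the receptor for the toxin under control of the CD169 gene (Siglec1), so that depletion by the toxin is not limited to bone marrow macrophages. Nothing in the labels says how many animals stand behind an array. The p values therefore measure the spread between these arrays.

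Histones are the proteins around which DNA is wound. Replication-dependent histone genes lie in clusters, are transcribed mainly in S phase, and give mRNAs that end in a stem-loop bound by Slbp instead of a poly(A) tail, so that their mRNA levels follow DNA synthesis. Variant histones such as H2A.Z, macroH2A and H2A.X are made outside S phase as well and have their own functions. H2A.X is phosphorylated at DNA double-strand breaks, and H1 linker histones bind the DNA that enters and leaves the nucleosome. LT-HSC are mostly quiescent, and irradiation can bring them into the cell cycle or arrest them.

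Array medians were 4.76 to 4.93 log2. On the first principal component the irradiated arrays lay between 3.23 and 40.3 and the non-irradiated arrays between -25.7 and -12.8. Replicate 2 of CD169-DTR 2 Gy (40.3) and replicate 1 of WT 2 Gy (29.5) were its extremes on the irradiated side. These arrays stood apart on the second component, at 36.7 for the CD169-DTR array and -45.3 for the WT array. The other arrays lay between -11.6 and 12.7 there. Where leaving out both moved a difference described below by over 1.5 times, the value without them is given for the genes and classes the comparisons turn on. The shared probe sets were not refitted without these arrays. Cdkn1a, the p53-induced inhibitor of cyclin-dependent kinases, read 13.24 and 13.23 in CD169-DTR 2 Gy and 9.79 and 9.34 in CD169-DTR non-irradiated LT-HSC. It read 13.06 and 13.41 in WT 2 Gy and 7.86 and 8.39 in WT non-irradiated LT-HSC. The difference of 5.11 ± 0.24 log2 (SE) in WT passed the test (adjusted p = 0.0073, limma), and that of 3.67 ± 0.24 in CD169-DTR did not (adjusted p = 0.0622). Kit, on which the gate relies, read between 14.25 and 14.36 on the irradiated arrays and between 14.66 and 14.93 on the non-irradiated arrays. Its irradiation difference averaged over both genotypes, -0.51 ± 0.08 log2, did not pass (adjusted p = 0.209, limma). Siglec1 read between 3.86 and 4.12 on every array. In bulk RNA, fewer cells of a type and less RNA per cell cannot be told apart.

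Replication-dependent promoters hold CCAAT boxes bound by NF-Y, and H2B promoters are known for an octamer bound by Oct1. The promoters of 3 H2A genes that differed most between the groups are shown with those of H2bc22, an H2B gene that went the other way, and H1f2, the linker gene with the widest range. Each is the 250 bases before the start in the RefSeq promoter table (GRCm38.p6), read 5′ to 3′ on the strand of the gene. For H2bc22, which has several RefSeq transcripts, the outermost start of the gene lies just inside the 3′ end of the window. Capitals mark matches, on either strand, of the CCAAT box, of the TATA box (TATAAA) and of the octamer (ATTTGCAT).
H2ac24, chr13:21833476-21833725, minus strand: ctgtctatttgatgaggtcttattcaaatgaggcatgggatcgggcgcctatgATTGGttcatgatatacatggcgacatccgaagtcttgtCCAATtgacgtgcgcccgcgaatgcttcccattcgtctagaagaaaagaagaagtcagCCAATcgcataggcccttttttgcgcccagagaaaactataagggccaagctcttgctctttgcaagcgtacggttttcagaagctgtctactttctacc
H2ac10, chr13:23533625-23533874, plus strand: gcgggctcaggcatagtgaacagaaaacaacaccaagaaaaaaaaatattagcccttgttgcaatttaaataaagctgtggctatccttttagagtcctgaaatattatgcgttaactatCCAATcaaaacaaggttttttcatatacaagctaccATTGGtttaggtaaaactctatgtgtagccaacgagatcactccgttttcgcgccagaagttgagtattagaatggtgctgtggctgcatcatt
H2ac15, chr13:21753913-21754162, minus strand: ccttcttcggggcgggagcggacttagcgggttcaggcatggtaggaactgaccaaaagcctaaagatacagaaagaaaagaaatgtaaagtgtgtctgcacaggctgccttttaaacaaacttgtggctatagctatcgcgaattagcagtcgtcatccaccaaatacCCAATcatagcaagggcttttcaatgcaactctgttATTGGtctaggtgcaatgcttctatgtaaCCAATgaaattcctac
H2bc22, chr13:21787238-21787487, plus strand: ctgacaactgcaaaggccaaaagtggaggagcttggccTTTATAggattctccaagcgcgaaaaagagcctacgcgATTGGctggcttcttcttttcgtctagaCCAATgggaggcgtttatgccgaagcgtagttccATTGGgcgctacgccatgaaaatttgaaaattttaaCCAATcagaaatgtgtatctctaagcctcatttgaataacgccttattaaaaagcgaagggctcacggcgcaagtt
H1f2, chr13:23738557-23738806, plus strand: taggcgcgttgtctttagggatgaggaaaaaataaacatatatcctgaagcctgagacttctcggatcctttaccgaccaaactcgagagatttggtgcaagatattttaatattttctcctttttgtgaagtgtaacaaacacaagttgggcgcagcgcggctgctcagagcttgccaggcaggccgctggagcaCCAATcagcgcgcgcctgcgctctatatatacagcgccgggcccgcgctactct

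Promoters of 22 of the 25 replication-dependent genes were in the RefSeq table. The letters CCAAT, on either strand, occurred in 21 of these 22 (95.5%), against 34.5% of all 27025 promoters of the same length. All 8 H2A promoters and all 6 H2B promoters held them, so the box did not separate the H2A genes from the H2B genes. The octamer ATTTGCAT occurred in 4 of 6 H2B promoters and in 2 of 8 H2A promoters (H2ac12 and H2ac20), against 1.61% of all promoters. H2ac12 and H2bc12 are divergent neighbours whose windows overlap, so a single octamer or CCAAT box may be counted for both. Whether other H2A windows are shared with an H2B gene was not examined, so the comparison of the 2 classes is limited. TATAAA was found in 8 of 22 (36.4%) against 13.0% of all. None of these motifs contains another, and a match describes the window and is not a measured binding site.

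The first comparison asks what differed in LT-HSC 5 days after 2 Gy in CD169-DTR mice, whose CD169+ macrophages the toxin depletes. Of the 9 replication-dependent H2A genes 7 read higher after 2 Gy, as did H2ax, the gene of H2A.X. For 20 of the 55 histone genes both irradiated arrays lay above both non-irradiated arrays, against 17.8% of all probe sets, and for 7 they lay below, against 13.4%. At an unadjusted p under 0.05, 9 genes were higher (3.24% of all probe sets) and 0 lower (3.53%), and 7 of the 9 also differed by at least 1.5-fold (3.58% of all probe sets in either direction). After Benjamini-Hochberg adjustment over 30294 probe sets in limma, 0 of 55 passed at 0.05, as did 0% of all probe sets. The median difference was 0.11 log2 over the histone genes and 0.03 over all probe sets.

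In WT mice the same dose was set against sham irradiation, and here all 9 H2A genes and H2ax read lower after 2 Gy. The groups did not overlap for 11 genes that were higher, against 31.4% of all probe sets, and for 15 that were lower, against 13.2%. At an unadjusted p under 0.05, 2 genes were higher (4.6% of all probe sets) and 5 lower (3.21%), and 4 of the 7 differed by at least 1.5-fold (3.31% of all). Again 0 of 55 passed in limma after adjustment, beside 0.0099% of all probe sets. The median difference was -0.02 log2 over the histone genes and 0.08 over all probe sets. Averaged over both genotypes, 0 of 55 genes passed, 3 were higher at an unadjusted p under 0.05 (5.24% of all probe sets) and 0 lower (3.98%), 0 of them by 1.5-fold (1.94% of all), and the median was 0.05 against 0.06 over all probe sets.

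The test of the difference between these responses is the interaction, the irradiation difference in CD169-DTR minus that in WT. It was positive for 35 of 55 histone genes, with a median of 0.11 log2 against -0.05 over all probe sets. That median was 0 without WT 2 Gy replicate 1 and 0.05 without both arrays that stood apart. At an unadjusted p under 0.05, 10 genes were positive (2.4% of all probe sets) and 2 negative (2.78%), all 12 by at least 1.5-fold (4.01% of all), and 0 passed after adjustment in limma, as did 0% of all probe sets. For 10 genes the irradiated arrays lay wholly above the non-irradiated arrays in CD169-DTR and wholly below them in WT, against 1.76% of all probe sets, and for 3 genes the opposite held, against 2.68%. The comparisons share arrays, and their values are therefore given side by side below for each class of gene.

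The 9 replication-dependent H2A genes encode the core histone that pairs with H2B on the outer faces of the nucleosome. In CD169-DTR, 7 were higher and 2 lower after 2 Gy, with a median difference of 0.62 log2. At an unadjusted p under 0.05, 6 were higher (3.24% of all probe sets) and 0 lower (3.53%). In WT, 0 were higher and 9 lower, with a median of -0.51 log2, and 3 were lower at an unadjusted p under 0.05 (3.21% of all probe sets). The median interaction was 1.14 log2, positive for 8 of the 9. Copies of H2A are nearly identical in their coding sequence, so a probe set annotated to 1 gene may also read others, and the 9 values are not independent.

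H2ac24 (Hist1h2ap in the older naming) read 5.97 and 6.12 log2 in CD169-DTR 2 Gy and 5.09 and 4.44 in CD169-DTR non-irradiated LT-HSC. In WT it read 5.18 and 5.06 after 2 Gy and 5.97 and 6.46 without irradiation. The CD169-DTR 2 Gy and the WT non-irradiated arrays were thus high, the other 4 low, and the groups did not overlap in either genotype. The 4 low values lay close to the array medians of 4.76 to 4.93 log2, so the folds below set a weak signal against dim values. The difference after 2 Gy was 1.28 ± 0.25 log2 (SE) in CD169-DTR, 2.43-fold higher with a 95% interval of 1.6 to 3.69 (adjusted p = 0.516, limma). In WT it was -1.09 ± 0.25 log2, 2.14-fold lower with an interval of 1.4 to 3.25 (adjusted p = 0.48). Its interaction of 2.37 ± 0.36 log2 had the smallest p of the histone genes (unadjusted p = 0.000377, adjusted p = 0.713, limma).

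H2ac10 (Hist1h2af) read 16.61 and 17.20 in CD169-DTR 2 Gy against 16.31 and 15.84 in CD169-DTR non-irradiated LT-HSC, and 16.12 and 16.13 in WT 2 Gy against 16.93 and 16.81 in WT non-irradiated LT-HSC. The irradiated arrays lay above the others in CD169-DTR and below them in WT. The differences were 0.83 ± 0.23 log2 in CD169-DTR (adjusted p = 0.622, limma) and -0.74 ± 0.23 in WT (adjusted p = 0.566). H2ac15 (Hist1h2ak) read 12.95 and 13.55 in CD169-DTR 2 Gy, 12.71 and 11.84 in CD169-DTR non-irradiated, 11.94 and 12.25 in WT 2 Gy, and 12.46 and 12.89 in WT non-irradiated LT-HSC. It followed the same order, with 0.97 ± 0.34 log2 in CD169-DTR and -0.58 ± 0.34 in WT. Hist1h2aj read 17.02 and 17.57 in CD169-DTR 2 Gy, 16.86 and 16.48 in CD169-DTR non-irradiated, 16.52 and 16.63 in WT 2 Gy, and 17.05 and 17.13 in WT non-irradiated LT-HSC, again with no overlap within a genotype. Its differences were 0.62 ± 0.21 log2 in CD169-DTR and -0.51 ± 0.21 in WT.

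H2ac12 (Hist1h2ah) read 4.53 and 5.38 in CD169-DTR 2 Gy, 4.18 and 4.11 in CD169-DTR non-irradiated, 4.25 and 4.12 in WT 2 Gy, and 4.63 and 5.02 in WT non-irradiated LT-HSC. Both low groups lay close together and below the array medians, and both high groups lay above them, so H2ac12 is a dim gene. H2ac20, of the smaller second cluster, read 9.27 and 9.71 in CD169-DTR 2 Gy and 9.12 and 8.79 in CD169-DTR non-irradiated LT-HSC, a difference of 0.54 ± 0.19 log2. In WT it read 9.04 and 9.05 after 2 Gy and 9.24 and 9.09 without, a difference of -0.12 ± 0.19. H2ac20 had the highest average irradiation difference of the H2A genes, 0.21 log2, and H2ac18 the lowest, -0.29. H2ac18, H2ac19 and H2ac21 did not follow the order of the other 6, since their CD169-DTR groups overlapped, with differences of -0.54 ± 0.44, -0.06 ± 0.28 and 0.09 ± 0.18 log2.

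**Figure D1:**
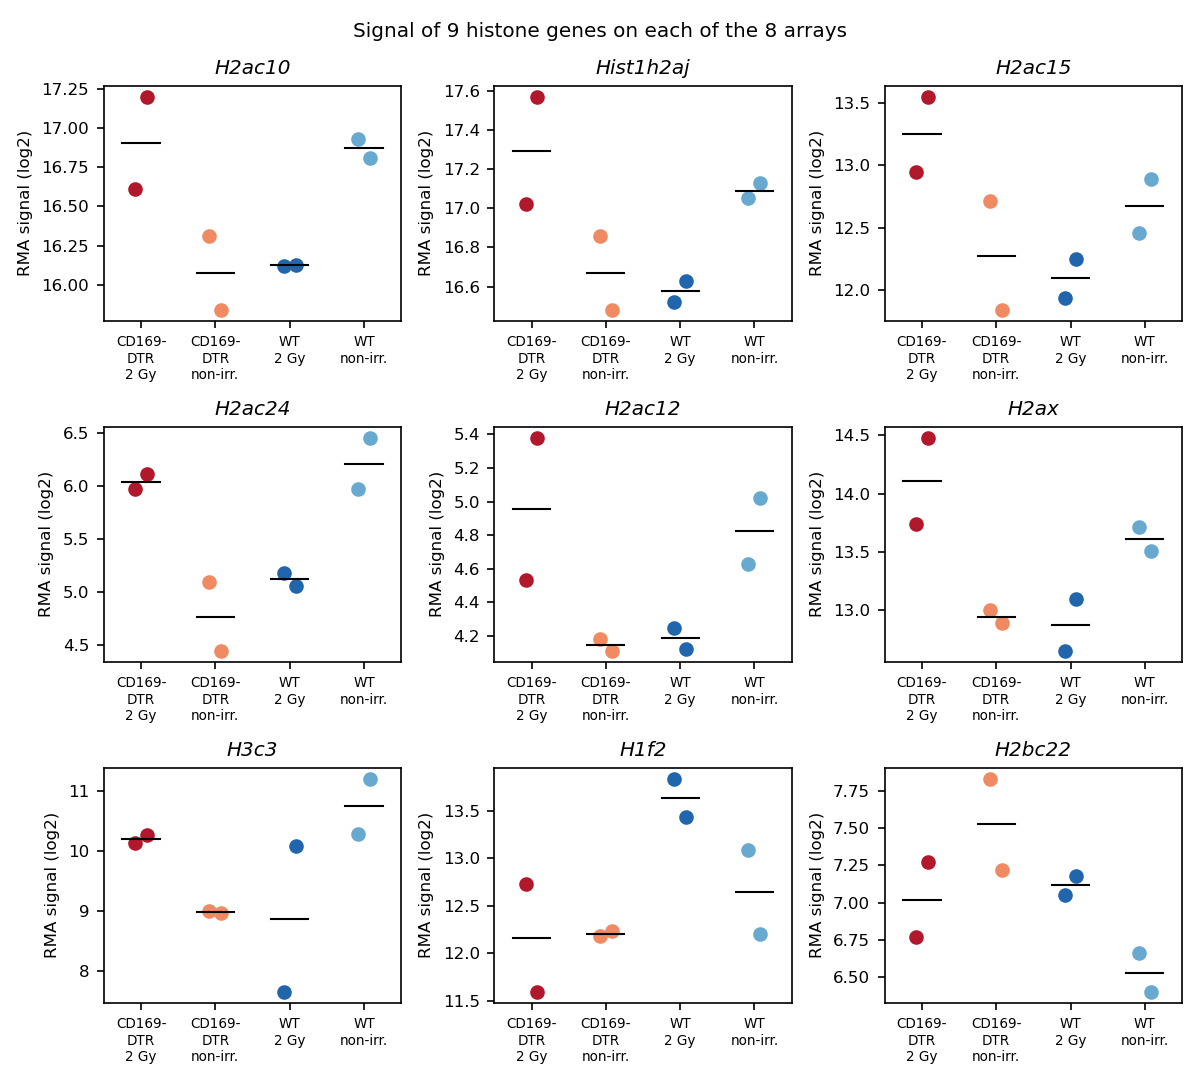
RMA signal (log2, vertical axis, own scale per panel) of 9 histone genes on each of the 8 arrays, by group, with points for arrays and lines for group means. H2ac10, Hist1h2aj, H2ac15, H2ac24, H2ac12, H2ax and H3c3 were high in CD169-DTR 2 Gy and WT non-irradiated LT-HSC, and H1f2 and H2bc22 were not.

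CD169-DTR 2 Gy replicate 2 was the higher array of its group for H2ac24, H2ac10, H2ac15, Hist1h2aj, H2ac12 and H2ac20. Without replicate 2 of CD169-DTR 2 Gy and replicate 1 of WT 2 Gy, the median H2A difference was 0.35 log2 in CD169-DTR and -0.44 in WT, and the median interaction 0.81. For H2ac24 the values without both arrays were 1.21 log2 in CD169-DTR, -1.15 in WT and 2.36 for the interaction (adjusted p = 0.901, limma). For H2ac10 they were 0.54 in CD169-DTR and -0.74 in WT, and for Hist1h2aj 0.35 and -0.46. In CD169-DTR, H2ac12 stood at 0.39 in place of 0.81 and H2ac20 at 0.31 in place of 0.54, and the H2ac20 interaction was 0.43 in place of 0.65. Each kept its direction, and the CD169-DTR differences of H2ac10, Hist1h2aj, H2ac12, H2ac20 and the class median were more than 1.5 times smaller. H2ac18 was 0.16 in CD169-DTR without CD169-DTR non-irradiated replicate 1, so its direction rests on that array. The CD169-DTR difference of H2ac15 was 0.54 without CD169-DTR non-irradiated replicate 2.

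Shared probe sets give a second view of the core histones, since many copies cannot be read apart. The 9 probe sets shared within H2A averaged 10 and 10.23 log2 in CD169-DTR 2 Gy, 9.50 and 9.25 in CD169-DTR non-irradiated, 9.70 and 9.63 in WT 2 Gy, and 10.15 and 10.14 in WT non-irradiated LT-HSC. Their order was that of the single H2A genes, without overlap in either genotype. In CD169-DTR 9 were higher and 0 lower, median 0.63 log2, and in WT 1 was higher, 7 lower and 1 at 0 to 2 decimals, median -0.63. The interaction was positive for 8 of 9, with a median of 1.34, but 0 passed after adjustment (lowest adjusted p = 0.534, limma). At an unadjusted p under 0.05, 6 were positive and 0 negative. In the separate fit of single-symbol probe sets 2.4% were positive at such a p. The share over all probe sets of the fit used here was not computed.

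H3 forms the centre of the nucleosome together with H4. H3c3 (Hist1h3c) read 10.13 and 10.27 in CD169-DTR 2 Gy against 8.99 and 8.97 in CD169-DTR non-irradiated LT-HSC, and 7.64 and 10.09 in WT 2 Gy against 10.29 and 11.21 in WT non-irradiated LT-HSC. The groups did not overlap in either genotype, though the WT 2 Gy arrays lay far apart. The differences were 1.22 ± 0.73 log2 in CD169-DTR (adjusted p = 0.847, limma) and -1.88 ± 0.73 in WT (adjusted p = 0.61), and the interaction was 3.10 ± 1.03 (adjusted p = 0.913). Without replicate 2 of CD169-DTR 2 Gy and replicate 1 of WT 2 Gy, the WT difference was -0.66 and the interaction 1.81. H3c7 and H3c8 differed by 0.02 and 0.06 log2 in CD169-DTR and by -0.01 and -0.30 in WT, and the WT difference of H3c8 was 0.38 without both arrays. Among the 7 probe sets shared within H3, 7 were higher in CD169-DTR (median 0.61 log2) and 7 lower in WT (median -0.61). Their median interaction was 1.16, and 6 were positive at an unadjusted p under 0.05, against 2.4% in the fit of single-symbol probe sets. Their array means were 6.65 and 7.22 in CD169-DTR 2 Gy, 6.56 and 6.26 in CD169-DTR non-irradiated, 6.37 and 6.38 in WT 2 Gy, and 6.97 and 7.11 in WT non-irradiated LT-HSC. Much of their CD169-DTR difference thus came from CD169-DTR 2 Gy replicate 2 (7.22), since replicate 1 (6.65) lay close to the higher non-irradiated array (6.56).

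H2B, the partner of H2A, did not show the order of the H2A genes. Of its 7 genes, 3 were higher and 4 lower after 2 Gy in CD169-DTR, median -0.04 log2, and 5 were higher and 1 lower in WT, median 0.31. Without WT 2 Gy replicate 2 the WT median was -0.22, so its direction rests on that array. The interaction was negative for 6 of 7, median -0.17, which was 0.03 without WT non-irradiated replicate 1 and -0.67 without both arrays that stood apart. H2bc22 (Hist1h2bp) read 6.77 and 7.27 in CD169-DTR 2 Gy, 7.83 and 7.22 in CD169-DTR non-irradiated, 7.05 and 7.18 in WT 2 Gy, and 6.66 and 6.40 in WT non-irradiated LT-HSC. The groups overlapped in CD169-DTR and not in WT, where the irradiated arrays were higher. The differences were -0.50 ± 0.25 log2 in CD169-DTR and 0.59 ± 0.25 in WT, with an interaction of -1.09 ± 0.36 (adjusted p = 0.913, limma).

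H2bc12 (Hist1h2bk) had the highest average irradiation difference of the H2B genes, 0.41 log2 (adjusted p = 0.523, limma), and H2bc21 (Hist2h2be) the lowest, -0.25. H2bc12 read 7.40 and 7.38 in CD169-DTR 2 Gy, 6.70 and 7.30 in CD169-DTR non-irradiated, 7.34 and 7.36 in WT 2 Gy, and 6.71 and 7.13 in WT non-irradiated LT-HSC. Its 4 irradiated arrays lay above its 4 non-irradiated arrays, which held for 1 of 55 histone genes, against 3.76% of all probe sets, and the opposite for 0 of 55, against 1.74%. H2bc21, an H2B gene also expressed outside S phase, read 12.32 and 12.49 in CD169-DTR 2 Gy, 12.42 and 12.30 in CD169-DTR non-irradiated, 11.38 and 11.90 in WT 2 Gy, and 12.43 and 11.93 in WT non-irradiated LT-HSC. Both WT 2 Gy arrays and WT non-irradiated replicate 2 were lower than the rest, and only a narrow gap kept the WT groups from overlapping. Its WT difference of -0.54 was -0.28 without both arrays that stood apart. The 9 probe sets shared within H2B had medians of 0.01 log2 in CD169-DTR and 0.27 in WT, and the interaction was negative for 8 and 0 at 2 decimals for the other.

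The 2 single-symbol H4 genes, H4c1 and H4c2, differed by at most 0.13 log2 in either genotype, with interactions of 0.04 ± 0.19 and 0.01 ± 0.22. Among the 11 probe sets shared within H4, 4 were higher, 6 lower and 1 at 0 to 2 decimals in CD169-DTR (median -0.01 log2) and 9 higher and 2 lower in WT (median 0.21). Their interaction was positive for 3 and negative for 8, with a median of -0.37. H4c1 read 4.29 to 4.61 log2, below every array median, and H4c2 5.01 to 5.61, so the 2 single-symbol genes were dim and their small differences say little. The shared H4 probe sets did not follow the order of most H2A genes, H3c3 and the shared H3 probe sets.

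**Figure D2:**
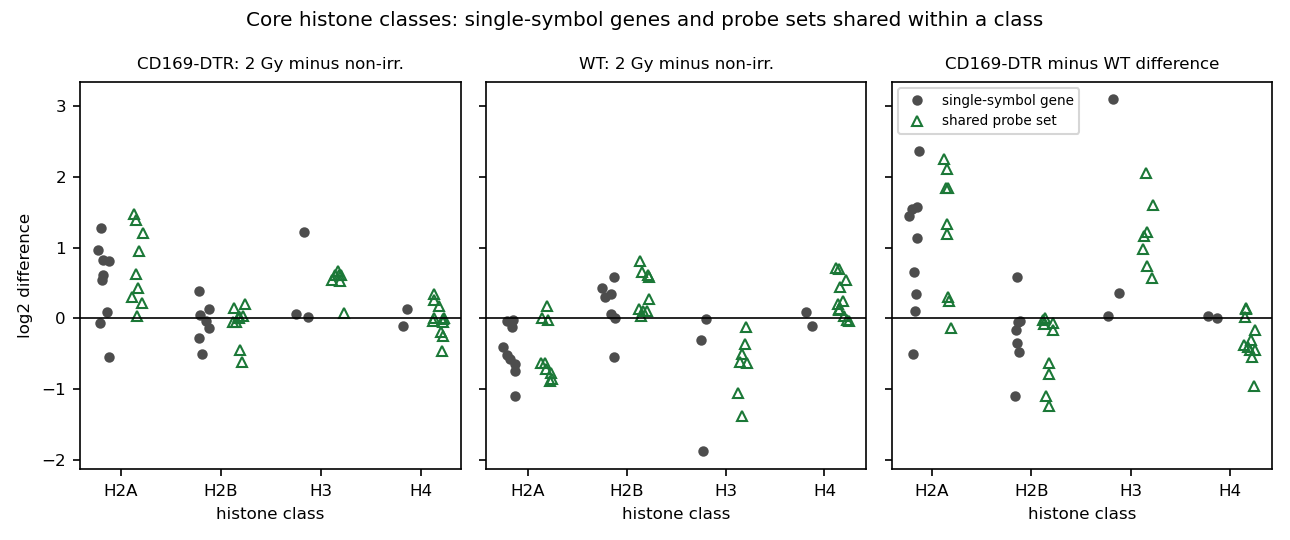
Log2 difference (vertical axis) of single-symbol genes (points) and shared probe sets (triangles) in each core histone class, for irradiation in CD169-DTR, irradiation in WT and the CD169-DTR minus WT difference. The shared H2A and H3 probe sets had median interactions of 1.34 and 1.16 log2, those of H2B and H4 of -0.16 and -0.37.

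The 4 replication-dependent linker histone genes read higher after 2 Gy in WT, without overlap, by a median of 0.62 log2, where 31.4% of all probe sets were likewise higher without overlap. Of the 4, 1 had an unadjusted p under 0.05 (4.6% of all probe sets), and the median was 0.34 without WT 2 Gy replicate 2. In CD169-DTR 1 was higher and 3 lower, with a median of -0.08. H1f2 (Hist1h1c) read 12.73 and 11.59 in CD169-DTR 2 Gy, 12.18 and 12.23 in CD169-DTR non-irradiated, 13.84 and 13.44 in WT 2 Gy, and 13.09 and 12.20 in WT non-irradiated LT-HSC. It was highest on both WT 2 Gy arrays, and its CD169-DTR groups overlapped. The differences were -0.05 ± 0.43 log2 in CD169-DTR and 0.99 ± 0.43 in WT (adjusted p = 0.642, limma). The WT difference was 0.55 without WT non-irradiated replicate 2. H1f1 (Hist1h1a) read 8.96 and 9.47 in CD169-DTR 2 Gy, 9.29 and 9.46 in CD169-DTR non-irradiated, 8.53 and 9.43 in WT 2 Gy, and 7.83 and 8.5 in WT non-irradiated LT-HSC. Both WT non-irradiated arrays were the lowest. Its difference was -0.16 ± 0.36 log2 in CD169-DTR and 0.81 ± 0.36 in WT, and the WT value was 1.27 when replicate 1 of WT 2 Gy was left out and 0.37 when its replicate 2 was. H1f5 (Hist1h1b) was higher after 2 Gy in both genotypes, by 0.32 ± 0.15 in CD169-DTR and 0.43 ± 0.15 in WT, and averaged 0.38 ± 0.11 (unadjusted p = 0.0106, adjusted p = 0.428, limma). H1f3 (Hist1h1d) differed by -0.11 ± 0.14 in CD169-DTR and 0.27 ± 0.14 in WT. Interactions of all 4 were negative, between -1.04 and -0.11, and that of H1f2 was -0.27 without both arrays that stood apart.

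**Figure D3:**
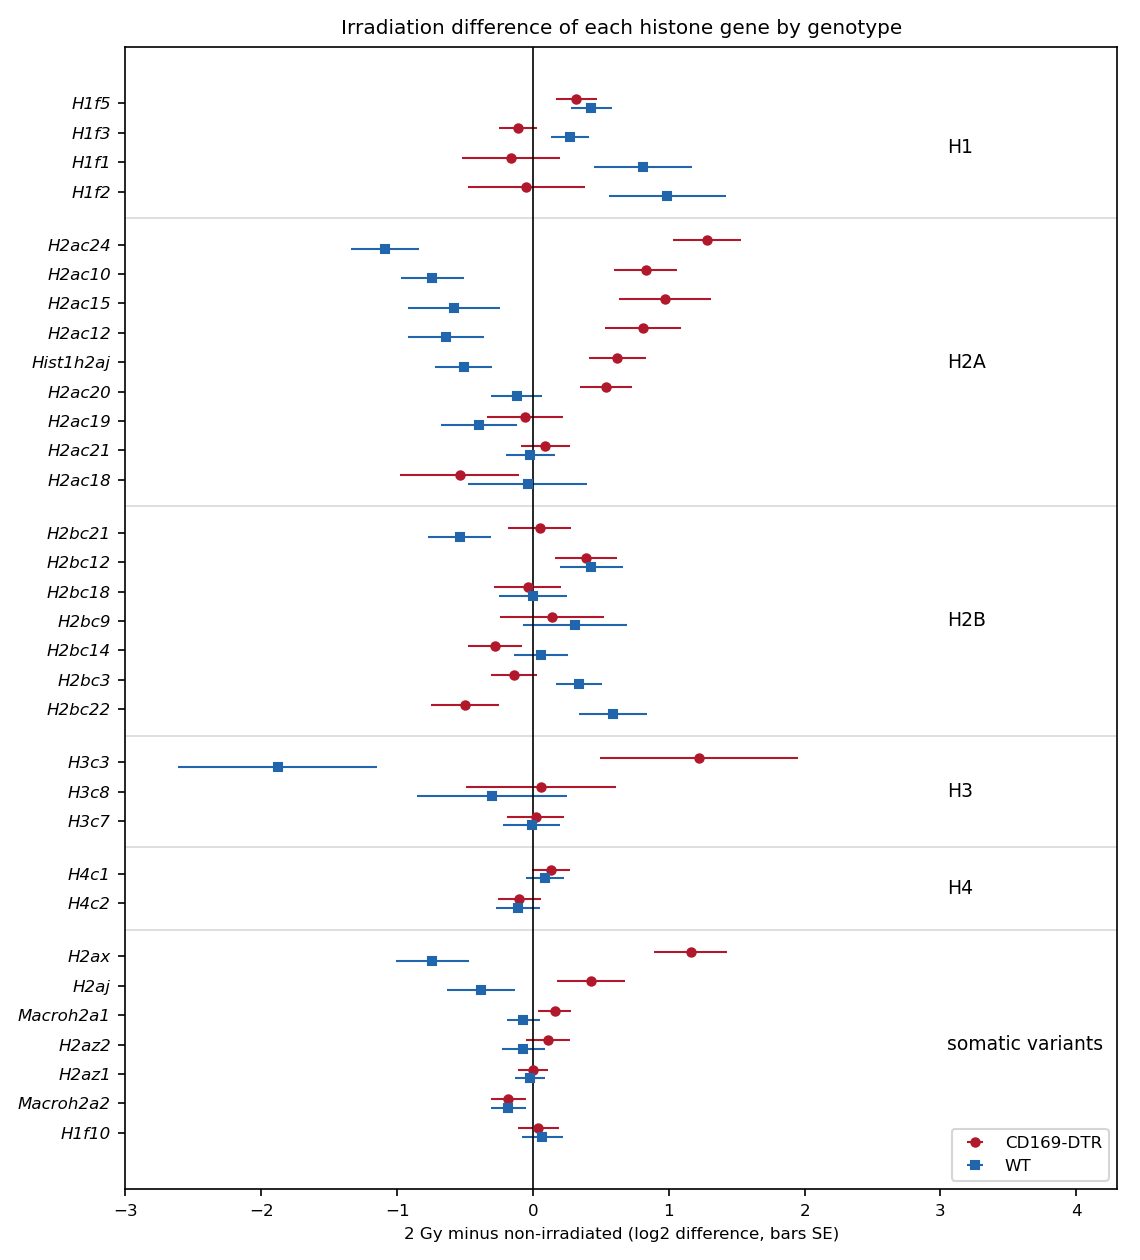
Difference of 2 Gy minus non-irradiated (log2, horizontal axis, bars SE of the limma fit) of each replication-dependent and somatic variant histone gene, CD169-DTR as circles and WT as squares. H3c3, H2ac24 and H2ax lie furthest apart between the genotypes, with interactions of 3.10, 2.37 and 1.90 log2, and no gene passed the adjusted test.

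Among the 7 somatic variants, H2ax followed the H2A genes. It read 13.74 and 14.48 in CD169-DTR 2 Gy against 13.00 and 12.89 in CD169-DTR non-irradiated LT-HSC, and 12.65 and 13.10 in WT 2 Gy against 13.71 and 13.51 in WT non-irradiated LT-HSC. The irradiated arrays were high in CD169-DTR and low in WT, without overlap. The differences were 1.16 ± 0.27 log2 in CD169-DTR, 2.24-fold with a 95% interval of 1.44 to 3.5 (adjusted p = 0.544, limma), and -0.74 ± 0.27 in WT (adjusted p = 0.594). The interaction was 1.90 ± 0.38 (adjusted p = 0.778), and 1.31 without the pair of arrays that stood apart. H2aj, a variant close to canonical H2A, read 12.97 and 13.46 in CD169-DTR 2 Gy, 13.02 and 12.55 in CD169-DTR non-irradiated, 12.52 and 12.97 in WT 2 Gy, and 13.10 and 13.14 in WT non-irradiated LT-HSC. Its differences were 0.43 ± 0.25 log2 in CD169-DTR, where the groups overlapped, and -0.38 ± 0.25 in WT. Without the arrays that stood apart these were 0.18 and -0.15.

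The other somatic variants varied little. H2az1, the main gene of H2A.Z, read between 17.49 and 17.65 log2 on all 8 arrays, a range of 0.16, with differences of 0.00 ± 0.11 in CD169-DTR and -0.02 ± 0.11 in WT. H2az2 read between 15.60 and 16.05. Macroh2a1, which marks silent chromatin, read between 10.39 and 10.67, with differences of 0.16 ± 0.12 in CD169-DTR and -0.07 ± 0.12 in WT. Macroh2a2 differed by -0.18 ± 0.13 in both genotypes. H1f10, a linker variant, lay among the dimmest 25% of probe sets on 8 of 8 arrays and differed by 0.04 ± 0.15 in CD169-DTR and 0.07 ± 0.15 in WT.

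Germ-line variants are made mainly in testis or oocyte. Of the 16, 11 were higher and 5 lower after 2 Gy in CD169-DTR (median 0.16 log2), and 9 higher and 6 lower in WT (median 0.03). H2ac1, a testis H2A gene close in sequence to the replication-dependent copies, read 7.36 and 8.08 in CD169-DTR 2 Gy, 7.09 and 6.64 in CD169-DTR non-irradiated, 6.71 and 6.97 in WT 2 Gy, and 7.01 and 7.37 in WT non-irradiated LT-HSC. This is the order of the H2A genes, with an interaction of 1.21 ± 0.40 log2 (adjusted p = 0.913, limma), which was 0.72 without the arrays that stood apart. H1f6, a testis linker histone, read 3.85 and 3.75 in CD169-DTR 2 Gy and between 3.26 and 3.45 on the other 6 arrays, all among the dimmest 25% of probe sets. Its difference in CD169-DTR was 0.50 ± 0.11 log2 (adjusted p = 0.536, limma). H2bc1, the testis H2B gene beside H2ac1, differed by -0.10 ± 0.13 in CD169-DTR and 0.15 ± 0.13 in WT. Of the 6 pseudogenes, H2bu1-ps had the largest difference, 0.51 ± 0.19 log2 in WT and -0.30 ± 0.19 in CD169-DTR.

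The second question of the design is what differed in LT-HSC of CD169-DTR mice relative to WT mice at the same dose. After 2 Gy, 42 of 55 histone genes were higher in CD169-DTR, with a median of 0.13 log2 against -0.02 over all probe sets. The median was 0.03 without both arrays that stood apart, and 0.07 to 0.25 with single arrays left out. At an unadjusted p under 0.05, 9 were higher (3.86% of all probe sets) and 1 lower (3.71%), 9 of these by at least 1.5-fold (3.56% of all), and 0 passed after adjustment in limma (0% of all). The groups did not overlap for 19 higher genes, against 16% of all probe sets, and for 3 lower genes, against 18.9%. H2ax was higher by 1.24 ± 0.27 log2 (adjusted p = 0.551), H2ac15 by 1.15 ± 0.34, H2ac24 by 0.92 ± 0.25 and H2bc21 by 0.77 ± 0.23. H1f2 was lower by 1.48 ± 0.43 log2, 2.79-fold with a 95% interval of 1.37 to 5.66 (adjusted p = 0.636, limma). Without the arrays that stood apart, the H1f2 difference was -0.71, that of H2ax 0.64, that of H2ac15 0.70, that of H2bc21 0.42 and the median of the H2A genes 0.39 in place of 0.72.

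Without irradiation the order of the H2A genes was the opposite. Of 55 histone genes 28 were higher and 27 lower in CD169-DTR, with a median of 0.02 log2 against 0.03 over all probe sets. At an unadjusted p under 0.05, 4 were higher (2.49% of all probe sets) and 5 lower (1.89%), 8 of these by at least 1.5-fold (1.89% of all), and 0 passed in limma (0% of all). The groups did not overlap for 12 higher genes (19.1% of all) and 11 lower genes (11.9%). Of the H2A genes 2 were higher and 7 lower, median -0.40 log2, and H2ac24 was lower by 1.45 ± 0.25, 2.73-fold with a 95% interval of 1.8 to 4.15 (adjusted p = 0.936, limma). H3c3 was lower by 1.77 ± 0.73 and H2ax by 0.66 ± 0.27. All 7 H2B genes were higher, by a median of 0.31, with H2bc22 at 1.0 ± 0.25 (adjusted p = 0.979), and H1f1 was higher by 1.21 ± 0.36. Averaged over both doses, 4 genes were higher (3.75% of all) and 2 lower (2.58%) at an unadjusted p under 0.05, 2 of these by at least 1.5-fold (1.05% of all), with H1f2 at -0.96 ± 0.30 and H2bc21 at 0.47 ± 0.16, and 0 passed (0% of all). Those were -0.58 and 0.30 without the arrays that stood apart. All 4 CD169-DTR arrays lay above all 4 WT arrays for 1 gene, H2bc1 (1.52% of all probe sets), and below them for 0 (1.09%).

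Neighbours in the clusters did not always share a direction. In RefSeq, H2ac12 and H2bc12 are divergent neighbours, yet the interaction was 1.45 log2 for H2ac12 and -0.04 for H2bc12. H3c3 lies next to H1f2 among the measured members, with interactions of 3.10 for H3c3 and -1.04 for H1f2. The divergent testis pair had 1.21 for H2ac1 and -0.25 for H2bc1. H2ac20 and H2bc21, also neighbours, had 0.65 and 0.59.

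Genes of histone transcription and histone mRNA processing were read from a list of 19. Of these, 13 were higher and 6 lower after 2 Gy in CD169-DTR (median 0.25 log2), and 9 higher and 10 lower in WT (median -0.07). With an unadjusted p under 0.05, 2 were higher (3.24% of all probe sets) and 0 lower (3.53%) in CD169-DTR, and 1 higher (4.6%) and 1 lower (3.21%) in WT, and 0 passed in limma after adjustment. Upf1, the helicase that Slbp recruits for histone mRNA decay, read 7.68 and 7.84 in CD169-DTR 2 Gy, 7.29 and 7.17 in CD169-DTR non-irradiated, 6.83 and 7.26 in WT 2 Gy, and 7.40 and 7.38 in WT non-irradiated LT-HSC. It shared the order of the H2A genes, with 0.53 ± 0.17 log2 in CD169-DTR (adjusted p = 0.622, limma), -0.35 ± 0.17 in WT and an interaction of 0.88 ± 0.24. Casp8ap2 (FLASH), needed for the cleavage of histone pre-mRNA, had the opposite order, with -0.53 ± 0.32 in CD169-DTR, 0.76 ± 0.32 in WT and an interaction of -1.29 ± 0.46 (adjusted p = 0.933). Nfyc, a subunit of the CCAAT-binding factor, differed by 0.05 ± 0.16 in CD169-DTR and -0.55 ± 0.16 in WT (adjusted p = 0.544), and Lsm11, of the U7 particle, by 0.43 ± 0.17 in CD169-DTR and -0.12 ± 0.17 in WT. Slbp differed by 0.27 ± 0.18 log2 in CD169-DTR and 0.16 ± 0.18 in WT, and Npat, the coactivator of histone transcription, by -0.30 ± 0.24 and 0.32 ± 0.24. Neither Slbp nor Npat passed the test. Of 19 histone chaperones, 11 were higher and 8 lower in each genotype, with medians of 0.02 log2.

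Since replication-dependent histone mRNAs accompany DNA synthesis, a list of 26 DNA replication genes was read beside them. In CD169-DTR 20 were higher and 6 lower after 2 Gy, with a median of 0.15 log2, and in WT 14 were higher and 11 lower, with a median of 0.03. The median interaction was 0.16, against 1.14 for the H2A genes and 0.04 for all 25 replication-dependent histone genes. Of those 25, 14 had a positive and 11 a negative interaction. Their median difference after 2 Gy was 0.06 in CD169-DTR and -0.02 in WT. After 2 Gy 23 of the 26 were higher in CD169-DTR than in WT, with a median of 0.41 log2. Of these, 6 had an unadjusted p under 0.05 (3.86% of all probe sets) and 13 did not overlap between the groups (16% of all). Without irradiation 23 of 26 were higher too, with a median of 0.24. The list mean was 10.73 and 10.90 in CD169-DTR 2 Gy, 10.49 and 10.82 in CD169-DTR non-irradiated, 10.30 and 10.65 in WT 2 Gy, and 10.28 and 10.58 in WT non-irradiated LT-HSC, and the groups overlapped in both genotypes. Replicate 2 read above replicate 1 in every group. By replicate number, each irradiated array lay above its non-irradiated counterpart in both genotypes. Whether the arrays are paired by number is not known. Tk1, a thymidine kinase of S phase, was higher by 0.58 ± 0.21 log2 in CD169-DTR and differed by -0.07 ± 0.21 in WT. Ccne2, a cyclin of the entry into S phase, differed by -0.06 ± 0.24 in CD169-DTR and 0.77 ± 0.24 in WT (adjusted p = 0.558, limma). Of 15 mitosis genes, 13 were higher in CD169-DTR (median 0.23) and 10 in WT (median 0.09), among them Cenpe, a mitotic kinesin, with 0.13 ± 0.24 in CD169-DTR and 1.10 ± 0.24 in WT (adjusted p = 0.43). With an unadjusted p under 0.05, 1 of the 26 replication genes was higher in each genotype (3.24% of all probe sets in CD169-DTR, 4.6% in WT) and 0 lower, and no gene of these lists passed in limma.

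**Figure D4:**
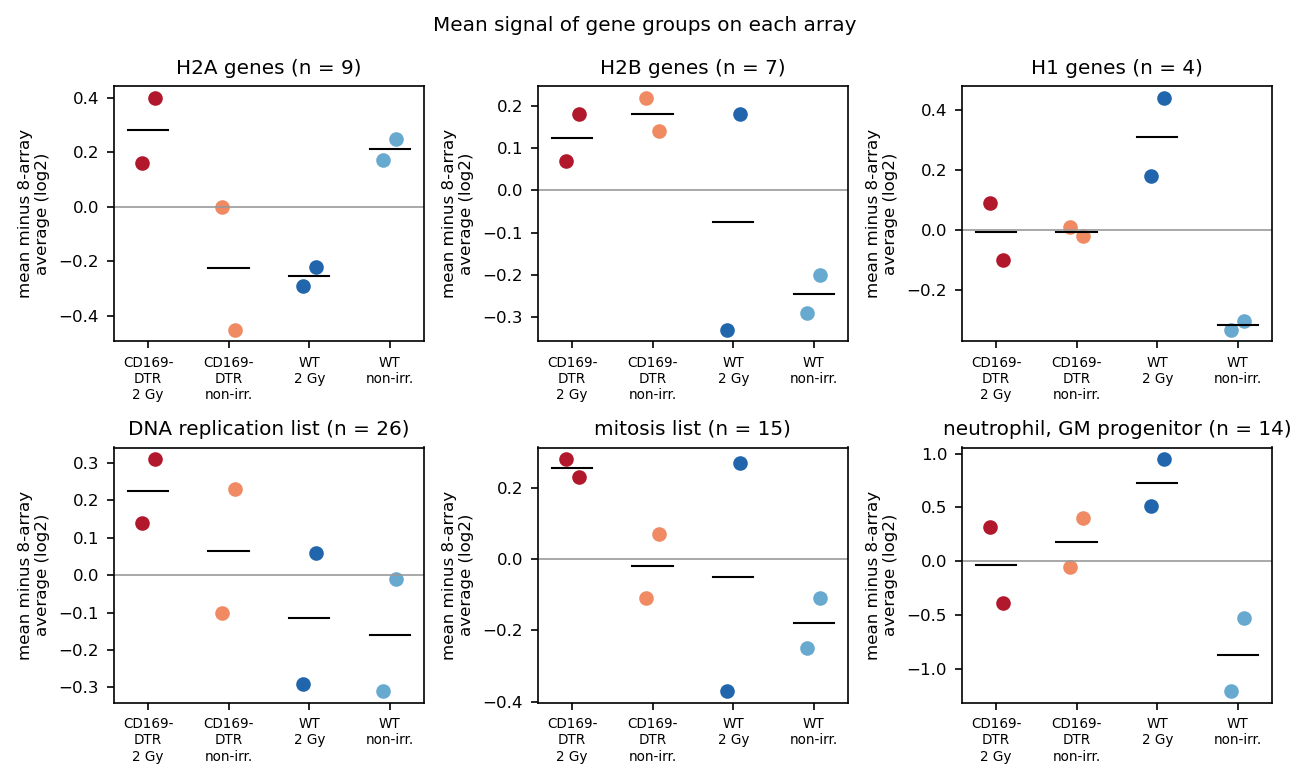
Mean log2 signal of 6 groups of genes on each array, as the difference from the mean over the 8 arrays (vertical axis, own scale per panel), with points for arrays and lines for group means. The H2A genes were above their average on the CD169-DTR 2 Gy and WT non-irradiated arrays, while the neutrophil and granulocyte-monocyte (GM) progenitor list was lowest on the WT non-irradiated arrays.

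Markers of other cell types also differed between the groups. The 14 neutrophil and granulocyte-monocyte progenitor genes averaged 8.83 and 8.12 in CD169-DTR 2 Gy, 8.46 and 8.91 in CD169-DTR non-irradiated, 9.02 and 9.46 in WT 2 Gy, and 7.30 and 7.98 in WT non-irradiated LT-HSC. After 2 Gy 5 were higher and 9 lower in CD169-DTR, with a median of -0.17 log2, and 13 were higher and 1 lower in WT, with a median of 1.60. The interaction was negative for 14 of 14, with a median of -1.43. Mpo, Elane and Ms4a3, which define early granulocyte precursors, read between 8.14 and 14.57, so none of these was near the floor of the array. Ltf, Lcn2, Cebpe and Gfi1 of the same list were dim, between 4.37 and 6.09. Unlike most of the list, Mpo, Elane and Ms4a3 were on average higher after 2 Gy in CD169-DTR. On WT 2 Gy replicate 2 these 3 read 14.06, 14.57 and 11.73, and on replicate 1 12.28, 12.80 and 9.77. The 12 mast cell, basophil and eosinophil genes averaged 7.43 and 7.18 in CD169-DTR 2 Gy, 6.10 and 6.44 in CD169-DTR non-irradiated, 6.74 and 7.04 in WT 2 Gy, and 7.16 and 6.42 in WT non-irradiated LT-HSC, with medians of 0.54 log2 in CD169-DTR and -0.03 in WT. Of the 13 monocyte and macrophage genes, 9 were higher in CD169-DTR (median 0.07) and 11 in WT (median 0.26). In WT 8 were higher without overlap (31.4% of all probe sets) and 1 at an unadjusted p under 0.05 (4.6%). The list's median was 4.31 to 4.84 on the 8 arrays, near the array medians, so most of it was dim. The megakaryocyte list averaged 11.07 on WT 2 Gy replicate 1 and between 9.54 and 10.57 elsewhere, and the erythroid list 6.99 on CD169-DTR 2 Gy replicate 2 and between 7.46 and 8.70 elsewhere. The lymphoid list averaged between 5.51 and 6.05, and the endothelial and stromal list between 5.21 and 5.66. The part of these cell types in the histone differences was not tested.

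The 11 genes of the LT-HSC gate and identity list averaged between 10.51 and 10.82 on the 8 arrays, with members on both sides. For irradiation averaged over both genotypes, 0 passed in limma. At an unadjusted p under 0.05, 3 were lower (3.98% of all probe sets) and 1 higher (5.24%). Without overlap 3 were lower (1.74% of all probe sets), namely Kit, Hlf and Flt3, and 0 higher (3.76%). Hlf read 12.44 to 12.70 on the irradiated arrays and 12.94 to 13.33 on the non-irradiated arrays. Cd48, whose protein the gate excludes, read 13.47 and 13.00 in CD169-DTR 2 Gy, 11.05 and 12.54 in CD169-DTR non-irradiated, 12.95 and 12.14 in WT 2 Gy, and 11.24 and 10.98 in WT non-irradiated LT-HSC. Flt3, the gene of Flk2 and also excluded by the gate, read 5.85 and 6.48 in CD169-DTR 2 Gy, 7.37 and 8.22 in CD169-DTR non-irradiated, 6.45 and 6.65 in WT 2 Gy, and 7.99 and 7.12 in WT non-irradiated LT-HSC. In both genotypes the irradiated arrays lay above the non-irradiated arrays for Cd48 and below them for Flt3. The differences of Cd48 were 1.44 ± 0.50 log2 in CD169-DTR and 1.43 ± 0.50 in WT, those of Flt3 -1.63 ± 0.40 and -1.01 ± 0.40, and none passed in limma (lowest adjusted p = 0.551).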

How the data were processed

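RNA of sorted LT-HSC was hybridised to 8 Affymetrix arrays after labelling with the GeneChip WT Pico kit, per the labels' protocols. How this kit primes histone mRNAs, which lack a poly(A) tail, is not given in the sources used here. The deposited value table holds 1 log2 value per probe set and array, made by the authors with RMA, per the submitters' processing notes. The log2 base is taken from the convention of RMA, as the table does not state it. Of 40161 probe sets, 30294 carry 1 gene symbol in the platform annotation, 2145 several and 7722 none. Symbols were updated through Entrez IDs with the RefSeq table of GRCm38.p6, which matched 22589 single-symbol probe sets and 51 of the 55 histone genes. The other 4 histone genes keep the annotation's symbol. Where a gene had 2 probe sets (H4c2), that with the higher mean was used. No column of other samples was in the table.

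A model with 4 group means was fitted with limma 3.58.1 (lmFit and eBayes), with statmod 1.5.0 in R 4.3.3, on the 30294 probe sets, with no covariate and no filter on dim probe sets. The residual degrees of freedom were 4, the prior ones 2.59, and the residual SD had a median of 0.182 log2. Two-sided tests were used, with Benjamini-Hochberg adjustment over all probe sets within each of 7 comparisons, and adjusted p under 0.05 counted as passed. Folds and their 95% intervals come from the same fit. Shared probe sets were fitted with all 40161 probe sets. With 2 arrays per group, the number of arrays limits the precision. In a self-test of irradiation in WT on 30294 simulated probe sets, limma recovered 48 of 100 changes of 2-fold and 78 of 100 of 4-fold, with 8 false calls. The planted changes eased the adjustment, whereas in the data at most 3 probe sets passed in a comparison. These recovery rates therefore do not give the power of the real tests. In CD169-DTR, the 12.7-fold difference of Cdkn1a did not pass (adjusted p = 0.0622, limma).

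The members, the gene lists and the rule for named genes were chosen with earlier results of these data known. The rule names, per comparison, the 4 largest differences in each direction with an unadjusted p under 0.05 and groups that do not overlap, each H1 gene and somatic variant, and the genes with the highest and lowest average irradiation difference of each core class. It also names, per list of related genes, those with the smallest p in each direction. The text gives a choice of the genes so found. H2ac18, H2ac19, H2ac21, H3c8, H2bc1, Slbp, Npat, Kit, Hlf, Cd48, Flt3, Ltf, Lcn2, Cebpe and Gfi1 fall outside that rule, wholly or in the comparison printed, and were added after their values were seen. The alternatives were all probe sets, the mean of a gene's probe sets, a filter on mean signal at the 40th percentile, trend and robust settings of eBayes, array weights, cyclic loess, centring on the median, a replicate block, a fit of only the compared groups, each array left out in turn, and both arrays that stand apart left out together. Over all probe sets the replicate numbers showed little sign of pairing: the correlation of same-numbered deviations lay between -0.088 and 0.159. That cannot exclude pairing for a set of genes. In the DNA replication list, replicate 2 read above replicate 1 in every group. Genes read only through probe sets shared with other genes, such as H3f3a, H3f3b and H1f4, are not analysed here as members.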

Additional observations from a re-analysis of the deposited data

Results flagged for a closer look

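For 13 histone genes the irradiated arrays lay wholly on one side of the non-irradiated arrays in CD169-DTR and wholly on the other side in WT. The difference was tested as the interaction in limma (log2, irradiation difference in CD169-DTR minus that in WT), and none of the 13 passed (lowest adjusted p = 0.713). Among the replication-dependent H2A genes the interaction was 2.37 for H2ac24, 1.57 for H2ac10, 1.55 for H2ac15, 1.45 for H2ac12, 1.14 for Hist1h2aj and 0.65 for H2ac20. The H3 gene H3c3 had 3.10 and the variant H2ax 1.90. The germ-line genes H2ac1 and H1f6 had 1.21 and 0.59. In the opposite direction stood H2bu1-ps with -0.81, H2bc3 with -0.48 and H2bl1 with -0.26. Such opposite sides were found in 1.76% of all probe sets in the first direction and in 2.68% in the second. H1f6 and H2bl1 lay among the dimmest 25% of probe sets on all 8 arrays.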

How the results depend on the processing

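No histone gene passed in limma in any of the 7 comparisons under an alternative that kept both arrays of each compared group and gave an adjusted p. The differences followed were those with an unadjusted p under 0.05 and no overlap, interactions with such a p, and H1f2 in WT. All 883 alternative values of these differences kept their direction. Where 2 groups do not overlap, leaving out an array cannot reverse their difference. The kept direction is therefore largely set by that choice and is no measure of robustness. With an unadjusted p under 0.05 and a fold of at least 1.5 in place of the adjusted p, the counts were 7 for irradiation in CD169-DTR (3.58% of all probe sets), 4 in WT (3.31%), 9 for CD169-DTR against WT after 2 Gy (3.56%), 8 without irradiation (1.89%), 2 for the average of both doses (1.05%) and 12 for the interaction (4.01%). With single arrays left out, the median of the H2A genes ranged from 0.35 to 0.90 log2 for irradiation in CD169-DTR (0.62 with all arrays), from 0.36 to 1.0 for CD169-DTR against WT after 2 Gy (0.72), from -0.61 to -0.23 without irradiation (-0.40) and from 0.87 to 1.42 for the interaction (1.14). The values 0.35 and 0.36 are those without CD169-DTR 2 Gy replicate 2, and -0.61 that without CD169-DTR non-irradiated replicate 1. When replicate 2 of CD169-DTR 2 Gy and replicate 1 of WT 2 Gy were both omitted, the H2A medians were 0.35, 0.39 and 0.81 for the first, second and last of these, and the median over all histone genes for irradiation in WT was 0.05 in place of -0.02. With the replicate block the median of the H2A genes stayed at 0.62 for irradiation in CD169-DTR and -0.51 in WT and 0 genes passed, so the block changed no call. A lone array of a group was taken to vary as the other groups do. Limits are the 2 arrays per group, cross-hybridisation between near-identical histone copies, probe sets near the floor of the array and the markers of other cell types, Cd48 and Flt3 among the gated ones, that differed between the groups.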
